A study of Mus musculus with 13 samples.

Results

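Cybb, Cyba, Ncf1 and Ncf4 encode subunits of the phagocyte NADPH oxidase, the enzyme with which macrophages and neutrophils make superoxide. They were chosen by name as the 4 genes of this enzyme to be followed, and all 4 are among the 14518 gene entries of the table. RNA of microglia, the resident macrophages of the brain, was sequenced in 13 libraries. In 7 libraries (RSD) the C57BL/6 mice had passed through 6 cycles of repeated social defeat, in which an aggressor is met again and again. In 6 libraries (CON) the mice were controls of the same strain. All mice were described as adults of 2 months, and for RSD the microglia were taken 24 days after the last cycle. Cells were enriched on Percoll and sorted for CD11b and an intermediate level of CD45, which keeps microglia and leaves out most blood leukocytes of high CD45. Whether each library stands for 1 animal is not said in the labels, and p-values here cover the spread between libraries. The question here is whether transcripts of the superoxide-producing enzyme differed between RSD and CON that long after the stress.

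The oxidase is stored in pieces. Its catalytic subunit, Cybb (gp91phox or NOX2), sits in the membrane with its partner Cyba (p22phox) and passes electrons from NADPH to oxygen. When a phagocyte is stimulated, the organizer Ncf1 (p47phox), Ncf4 (p40phox) and other cytosolic parts such as a Rac GTPase move to that pair and switch it on. Resting microglia hold little superoxide activity, and the enzyme is best known in the brain for the oxidative burst of activated microglia and infiltrating phagocytes.

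The start regions of Cybb, Ncf1 and Cyba are shown because the catalytic gene stands apart from its partners in level. Each runs from base -250 to base 30 around the RefSeq start (GRCm38.p6) and is written on the gene's own strand. The Cybb stretch lies at chrX:9469295-9469574, that of Ncf1 at chr5:134229596-134229875 and that of Cyba at chr8:122432911-122433190, all on the minus strand.
Cybb: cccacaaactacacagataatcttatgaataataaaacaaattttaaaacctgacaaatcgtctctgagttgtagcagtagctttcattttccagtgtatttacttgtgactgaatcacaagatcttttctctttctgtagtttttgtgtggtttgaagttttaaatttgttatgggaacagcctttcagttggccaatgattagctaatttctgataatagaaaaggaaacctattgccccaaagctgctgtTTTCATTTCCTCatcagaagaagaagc
Ncf1: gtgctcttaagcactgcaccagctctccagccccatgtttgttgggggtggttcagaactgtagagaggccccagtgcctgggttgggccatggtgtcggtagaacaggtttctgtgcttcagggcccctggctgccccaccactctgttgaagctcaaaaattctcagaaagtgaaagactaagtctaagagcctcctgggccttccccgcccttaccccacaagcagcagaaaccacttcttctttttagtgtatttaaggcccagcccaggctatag
Cyba: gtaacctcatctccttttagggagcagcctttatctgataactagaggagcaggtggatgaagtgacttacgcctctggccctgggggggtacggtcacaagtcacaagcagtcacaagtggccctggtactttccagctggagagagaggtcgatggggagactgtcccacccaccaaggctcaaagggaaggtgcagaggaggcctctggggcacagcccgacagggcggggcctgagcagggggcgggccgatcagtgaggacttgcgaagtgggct
Capitals mark matches to GGAA followed after 2 bases by GAAA, the composite element of ETS and IRF factors, and to GAGGAA, the core read by the myeloid factor PU.1 (gene Spi1). Both strands were searched. The Cybb stretch holds TTTCATTTCC, a match to the first element on the opposite strand that begins 4 bases into the transcript. It overlaps TTCCTC, the opposite-strand form of the second, which begins at base 10. Of 32851 RefSeq stretches with the same borders, 2.55% hold the first element and 26.0% the second. The Ncf1 and Cyba stretches hold neither string of letters. The start region of Ncf4 was not among the sequences at hand and was not searched. In GENCODE M21 the genes span chrX:9435252-9487771 (Cybb), chr8:122424776-122432930 (Cyba), chr5:134220053-134229625 (Ncf1) and chr15:78244801-78262580 (Ncf4, plus strand).

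The libraries held 9.76 to 12.3 M reads. All 10 microglial markers were found in every library, with sums of 305624 to 323602 normalized reads in RSD and 310503 to 324844 in CON other than CON 18. A normalized read is a read divided by the library's size factor. CON 18 stood apart. Its microglial sum was 201252, with 6 of the 10 markers below and 1 (Fcrls) above every other library. The markers ranged from 0.287 times (Sall1, a microglial identity factor) to 1.13 times (Fcrls) the median of the other 12 libraries. All 8 measured markers of border-associated macrophages were above every other library there, and their sum was 33192, against 4916 to 8581 in RSD and 7369 to 8391 in the other CON libraries. Outside CON 18 most of that sum was Stab1, at 4602 to 8191 in RSD and 7119 to 8148 in CON. Stab1 had 18400 in CON 18. Ratios of CON 18 to the median of the other 12 libraries ran from 2.35 (Stab1) to 534 (Ms4a7) over these markers. The monocyte list summed to 9670 in CON 18, of which Lyz2 gave 8416. Of its 9 measured markers, 3 were above every other library there and 1 was below. Besides Lyz2, those above were Itgal, at 770.8 against at most 17.6 elsewhere, and Vcan, at 93.5 against at most 44.7. The monocyte receptor Ccr2 was at 347, against 295 to 357 in RSD and 299.9 to 344 in the other CON libraries. RSD 8 also stood apart: its deviations from the median library fell along the GC content of the transcripts (Spearman rho = -0.728 across 12365 genes, which are not independent replicates), against -0.566 in RSD 2 and -0.090 to 0.408 in the other 11 libraries. Differences of the 4 subunits are therefore given with and without CON 18, and also with RSD 8 left out. Values of single list genes are those of all 13 libraries unless said otherwise. Sample numbers in the labels fall into 1 to 8 (RSD 2, 7, 8 and CON 1, 4, 5) and 10 to 19 (RSD 10, 11, 12, 13 and CON 17, 18, 19). What the numbers stand for is not said, and values within each range are given beside the pooled ones.

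Transcripts of Cybb were scarce in 12 libraries and abundant in CON 18, while those of Cyba, Ncf1 and Ncf4 were plentiful in all 13. None of the 4 genes passed the test between RSD and CON, where 0% of the 12496 genes tested passed at an adjusted p of 0.05 (limma on log2 of value + 1, Benjamini-Hochberg). At an unadjusted p under 0.05 the test picked 4% of all genes and none of the 4. Without CON 18, 0% of 12583 genes passed the adjusted threshold and 4.92% the unadjusted one, again with none of the 4 among them. No gene of the 4 had RSD and CON groups that failed to overlap, which 0.064% of all genes had with 13 libraries and 0.334% without CON 18.

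**Figure D1:**
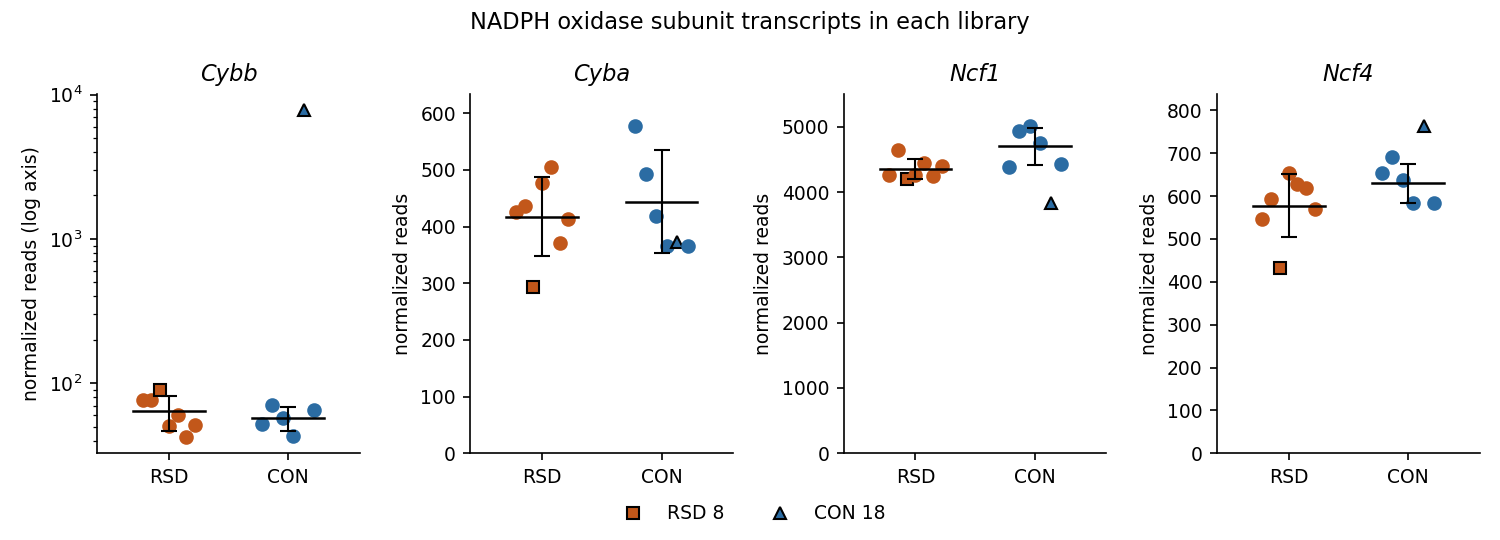
Normalized reads of Cybb (log axis), Cyba, Ncf1 and Ncf4 in each of 7 RSD and 6 CON libraries. Bars are mean and SD, with CON 18 (triangle) left out of the CON mean. RSD 8 is a square. Cybb in CON 18 stands at 7834.2, and the other 12 libraries lie between 42.5 and 90.5.

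Cybb, the catalytic subunit, had 76.7, 77.0, 90.5, 50.9, 60.1, 42.5 and 51.1 normalized reads in RSD 2, 7, 8, 10, 11, 12 and 13. It had 52.1, 70.5, 57.6, 43.3, 7834.2 and 65.7 in CON 1, 4, 5, 17, 18 and 19. CON 18 was far above every other library, and without it the groups overlapped, with 3 RSD libraries above and 1 below every CON library. The reads behind these values numbered 46 to 85 in RSD, 6952 in CON 18 and 45 to 76 in the other CON libraries, so that counting alone gives an error of 10.8% to 14.9% outside CON 18. The mean was 64.1 ± 17.5 in RSD (SD, n = 7) and 1354 ± 3175 in CON (SD, n = 6), or 57.9 ± 10.8 in CON without CON 18 (SD, n = 5). The log2 difference, RSD minus CON, was -1.06 ± 1.06 (SE; limma adjusted p = 0.826), and 0.12 ± 0.19 without CON 18 (adjusted p = 0.832). Exact two-sided permutation tests over libraries gave p = 0.538 with CON 18 and p = 0.566 without it. edgeR, which fits means of counts, put the difference at -4.41 ± 1.25 with CON 18 (unadjusted p = 0.00295, adjusted p = 0.793) and at 0.14 without it. The value after ± is here the size of the difference divided by the square root of edgeR's F statistic. With CON 18, edgeR gave 5.06% of all genes an unadjusted p under 0.05 and 0% an adjusted one. DESeq2 gave -4.41 with CON 18 and no p for the gene.

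The partners of Cybb were not high in CON 18 to any like degree. CON 18 had 131 times the median of the other 12 libraries for Cybb (58.8 normalized reads) and 85.7 times the highest of them, the third largest ratio of the 12496 genes tested. Genes read almost only in CON 18 did not pass the filter on low counts and are not in that ranking. A ratio of 10 or more was found for 79 genes, or 0.632%. The ratio was 0.883 for Cyba, 0.869 for Ncf1 and 1.26 for Ncf4. Ncf4 was higher in CON 18 than in every other library, as were 21.5% of all genes, and Ncf1 was lower than in every other library, as were 22.6% of all genes. The genes of larger ratio were the lectin receptor Clec12a (253-fold) and the interferon-inducible Ifi203 (214-fold), and Apoe, the lipid carrier of activated microglia and macrophages, stood at 87.6-fold. Mrc1, the mannose receptor of border-associated macrophages, was 45.0-fold higher, and Ms4a7, another of their markers, had 1839 normalized reads, against 1.04 to 5.81 in RSD and 1.80 to 8.35 in the other CON libraries. The neutrophil list summed to 69.9 in CON 18, inside the range of the other libraries. In a bulk library, a share of cells with much Cybb and more Cybb in every cell cannot be told apart, and neither can fewer cells of a type and less RNA per cell. Whether the border-associated macrophage transcripts bear on the Cybb level was not tested.

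Among the other genes of the pathway, CON 18 differed from the rest in either direction. The exchange factor Vav3, which loads Rac, had 271.6 normalized reads there, against 2.0 to 11.6 in RSD and 0 to 5.3 in the other CON libraries. The integrin chain Itgal, which is on the monocyte list and not on a list of the pathway, was 55.2-fold above the median of the other 12. The beta-glucan receptor Clec7a was 12.7-fold, the receptor Tlr2 3.36-fold and the complement receptor C3ar1 2.32-fold higher. The kinase Prkca and the Rac exchange factor Tiam1 were at 0.227 and 0.244 times that median, and the complement receptor chain Itgam at 0.598 times. Spi1 and Irf8, the factors named for the elements above, were at 0.830 and 1.06 times the median. The levels of these 2 regulators in CON 18 lay inside the range of the other libraries. For Spi1, at 1178 normalized reads, this held only with RSD counted (lowest 989). The other CON libraries had 1367 to 1490.

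Per length, the order of the subunits put Cybb last in 12 libraries and first in 1. In RPKM (reads scaled to the length of the merged exons and to the depth of the library), the level over the 12 libraries without CON 18 averaged 109 ± 8.47 for Ncf1, 36.7 ± 7.02 for Cyba, 26.4 ± 3.33 for Ncf4 and 0.94 ± 0.22 for Cybb (SD, n = 12). In CON 18 the level was 121 for Cybb, 93.9 for Ncf1, 33.9 for Ncf4 and 32.2 for Cyba. The catalytic transcript thus stood below its partner Cyba in every library except CON 18, where it stood above all the others. The 12-library mean of Cybb was above that of 12.6% of 12341 genes with a known length, whose median was 5.87 RPKM, and those of Ncf4, Cyba and Ncf1 were above 88.6%, 92.6% and 98.2% of them. In CON 18 the Cybb level was above 98.3% of these genes.

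**Figure D2:**
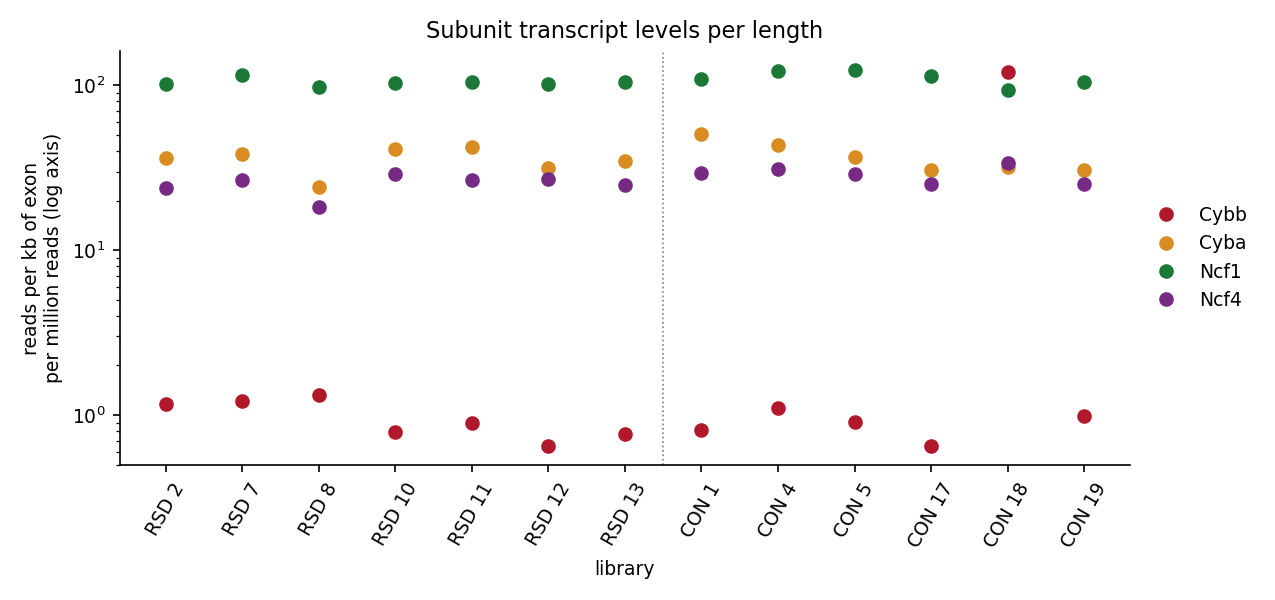
Levels per length in RPKM of merged exons (log axis) of Cybb, Cyba, Ncf1 and Ncf4 in each library, RSD left of the dotted line and CON right of it. Ncf1 is the highest in 12 libraries. Cybb lies between 0.65 and 1.33 in those and at 121 in CON 18.

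Neighbours in that order were separated to differing degrees. Ncf1 was above Cyba in 13 of 13 libraries. The ranges of Cyba (24.2 to 50.5) and Ncf4 (18.3 to 31.2) over the 12 libraries overlapped, yet within a library Cyba was the higher one in 12 of 13, CON 18 being the exception. The order did not depend on the length used: per kilobase of the longest coding transcript, Ncf1 averaged 139, Cyba 51.2, Ncf4 36.4 and Cybb 1.15 over the 12 libraries.

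Within sample numbers 1 to 8, Cybb was higher in RSD. All 3 RSD libraries (76.7 to 90.5 normalized reads) were above all 3 CON libraries (52.1 to 70.5), as were 16.2% of all genes. The log2 difference was 0.44 ± 0.19 (SE; limma unadjusted p = 0.045, adjusted p = 0.221), in a range where 0% of genes passed the adjusted threshold and 22.2% the unadjusted one. Within numbers 10 to 19 and without CON 18, it was -0.070 ± 0.24 (limma adjusted p = 0.948), with 42.5 to 60.1 normalized reads in RSD and 43.3 and 65.7 in CON. The difference between the 2 ranges, 0.51 ± 0.30 on the log2 scale, did not pass (limma interaction term, adjusted p = 0.298).

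Neutrophils carry the same oxidase, and summed neutrophil markers varied between libraries in the same range of numbers. The sum of the 9 measured markers of the 12 listed was 1220, 794 and 948 normalized reads in RSD 2, 7 and 8, against 188, 753 and 555 in CON 1, 4 and 5. It was 157, 123, 34.2 and 34.5 in RSD 10, 11, 12 and 13, against 31.7, 69.9 and 15.5 in CON 17, 18 and 19. In numbers 1 to 8 the sums did not overlap between the groups, though those of RSD 7 and CON 4 lay close together. Single markers differed in this. Ngp overlapped, with 260.3, 233.2 and 184.1 normalized reads in RSD 2, 7 and 8, against 57.5, 208.7 and 170.8 in CON 1, 4 and 5, and so did Ltf. S100a8, a calcium-binding protein abundant in neutrophils, did not. It had 304.5, 143.5 and 220.3 in RSD 2, 7 and 8, against 44.9, 133.6 and 111 in CON 1, 4 and 5. S100a9 did not overlap either (236.3 to 385.8 in RSD, 38.6 to 197.6 in CON). RSD 2, 7, 8 and CON 4, the 4 libraries of highest sum, were also those of highest Cybb among the 12 without CON 18. CON 19, with the lowest sum, came next in Cybb. S100a8 was listed at 0 in RSD 12, CON 17 and CON 19, where Cybb still had 42.5, 43.3 and 65.7 normalized reads. In numbers 1 to 8 the means of the other subunits were lower in RSD than in CON. They were 385 against 496 normalized reads for Cyba, 4371 against 4775 for Ncf1 and 524 against 661 for Ncf4. The part of the neutrophil markers in the Cybb difference was not tested.

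**Figure D3:**
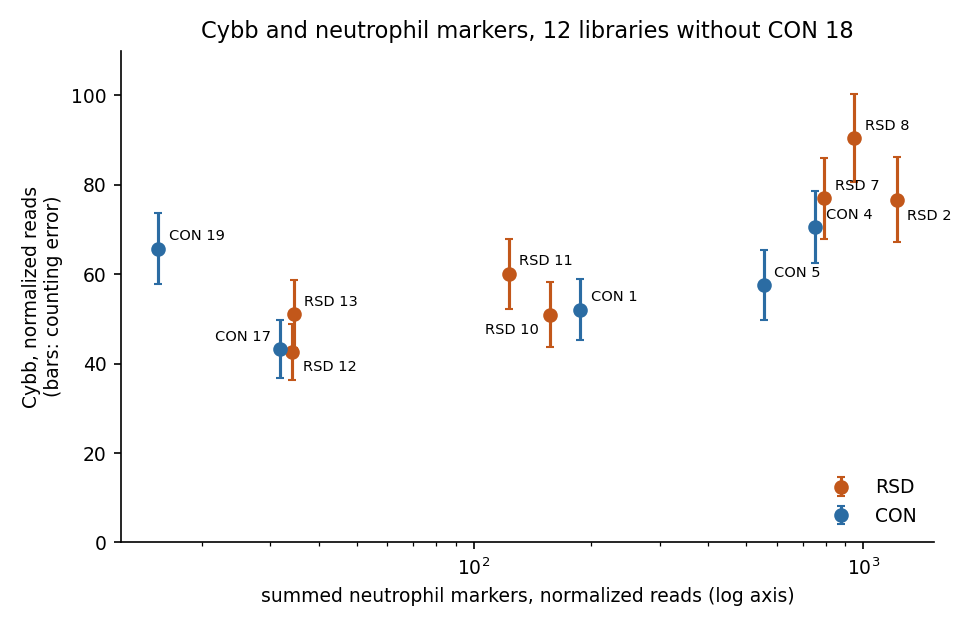
Cybb normalized reads, with counting error as bars, against the summed normalized reads of 9 neutrophil markers (log axis) in 12 libraries without CON 18. RSD 2, 7, 8 and CON 4 lie at the upper right, and CON 19 has the lowest marker sum with 65.7 normalized reads of Cybb.

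Cyba, the membrane partner that stabilizes the catalytic subunit, had 425.4, 436.8, 293.7, 477.0, 505.9, 370.9 and 413.5 normalized reads in RSD 2, 7, 8, 10, 11, 12 and 13. It had 577.0, 492.6, 419.4, 365.3, 373.0 and 365.5 in CON 1, 4, 5, 17, 18 and 19. RSD 8 was the lowest of all and CON 1 the highest, and the groups overlapped. The log2 difference was -0.046 ± 0.13 (SE; limma adjusted p = 0.933) and -0.084 ± 0.14 without CON 18 (adjusted p = 0.836). Exact two-sided permutation tests gave p = 0.763 with CON 18 and p = 0.616 without it. The direction was not the same in the 2 ranges of sample numbers. In numbers 1 to 8 the difference was -0.37 ± 0.18 (limma adjusted p = 0.234), with 385 ± 79.5 normalized reads in RSD and 496 ± 78.8 in CON (SD, n = 3 each). In numbers 10 to 19 without CON 18 it was 0.26 ± 0.11 (limma unadjusted p = 0.0201, adjusted p = 0.409), all 4 RSD libraries lying above CON 17 and CON 19, as for 8.93% of all genes. There 0.086% of genes passed the adjusted threshold and 9.49% the unadjusted one. The difference between the ranges was -0.64 ± 0.23 (limma interaction term, adjusted p = 0.131). Cyba lies inside the span of the predicted gene Gm20388 on the other strand, with 0 exon bases in common.

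Ncf1, the organizer that carries the cytosolic complex to the membrane, varied least. It had 4262, 4646, 4205, 4262, 4437, 4238 and 4399 normalized reads in RSD 2, 7, 8, 10, 11, 12 and 13, against 4389, 4927, 5008, 4755, 3834 and 4422 in CON 1, 4, 5, 17, 18 and 19. CON 18 was the lowest library, and without it 4 of 7 RSD libraries lay below every CON library. The mean was 4350 ± 156 in RSD (SD, n = 7) and 4556 ± 436 in CON (SD, n = 6), or 4700.3 ± 284 in CON without CON 18 (SD, n = 5). The log2 difference was -0.062 ± 0.068 (SE; limma adjusted p = 0.833) and -0.11 ± 0.056 without CON 18 (unadjusted p = 0.0672, adjusted p = 0.745). The exact two-sided permutation test gave p = 0.301 with CON 18 and p = 0.0215 without it, where the smallest p that 7 against 5 libraries allow is 0.00126. This single-gene p is not adjusted for the other genes. The unadjusted p was 0.0471 without CON 18 and RSD 8 (limma, adjusted p = 0.903), where 4.88% of all genes had one under 0.05, and 0.0191 with voom and library weights (limma-voom, adjusted p = 0.505), where 9.02% had. With the GC trend of each library removed and CON 18 left out, the difference was -0.038 ± 0.053 (limma adjusted p = 0.916). Ncf1 shares 408 exon bases with Gtf2ird2 on the opposite strand, which had 574 ± 77.7 normalized reads in RSD (SD, n = 7) and 598 ± 69.1 in CON (SD, n = 6). Whether the counting used strand is not given in the sources used here, so reads of that stretch cannot be told apart.

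Ncf4, which binds a phosphoinositide of the phagosome membrane and holds the complex there, had 547.4, 593.0, 433.1, 653.6, 627.1, 619.7 and 569.1 normalized reads in RSD 2, 7, 8, 10, 11, 12 and 13. It had 653.3, 690.1, 638.2, 584.5, 762.9 and 584.0 in CON 1, 4, 5, 17, 18 and 19. RSD 8 was the lowest library and CON 18 the highest, and 3 of 7 RSD libraries lay below every CON library. The log2 difference was -0.18 ± 0.097 (SE; limma unadjusted p = 0.0831, adjusted p = 0.821), -0.13 ± 0.094 without CON 18 (adjusted p = 0.745) and -0.066 ± 0.067 without CON 18 and RSD 8 (adjusted p = 0.929). Exact two-sided permutation tests gave p = 0.0851 with CON 18 and p = 0.201 without it. In numbers 1 to 8 all 3 RSD libraries were below all 3 CON libraries, as were 14.3% of all genes, with a difference of -0.34 ± 0.13 (limma unadjusted p = 0.0258, adjusted p = 0.205). In numbers 10 to 19 without CON 18 the difference was 0.078 ± 0.079 (limma adjusted p = 0.799). The difference between the ranges was -0.42 ± 0.16 (limma interaction term, adjusted p = 0.141).

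**Figure D4:**
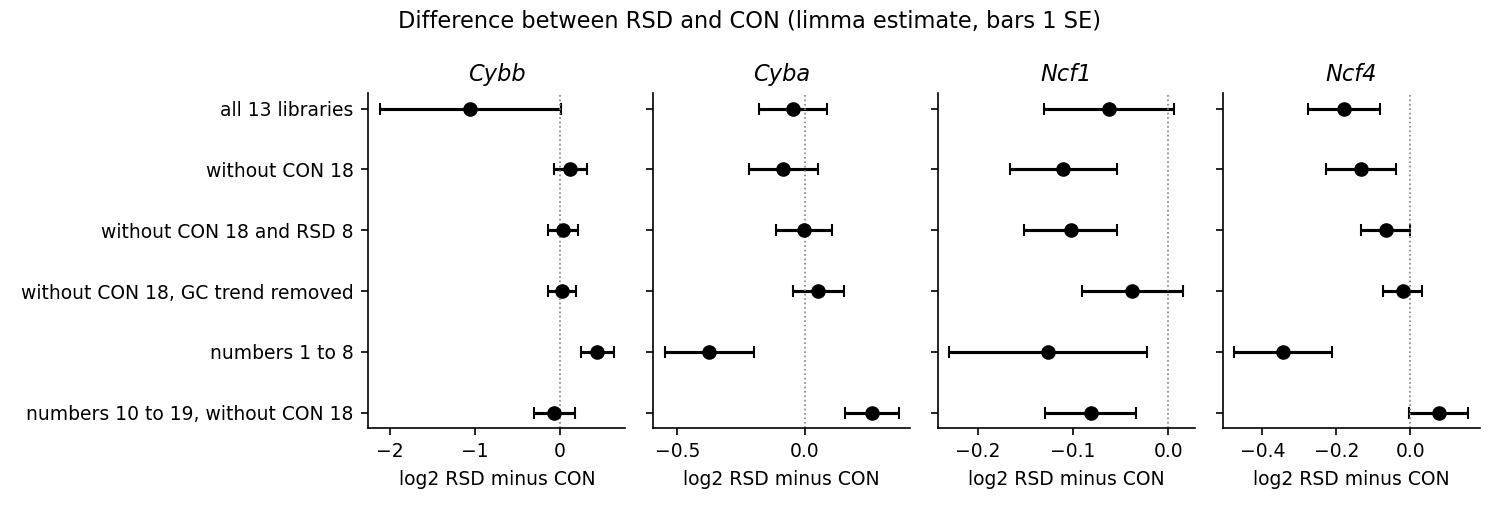
Log2 difference, RSD minus CON, of each subunit gene (limma estimate, bars 1 SE) with all 13 libraries and under 5 other choices of libraries or scale, each panel with its own axis. Cybb goes to 0.12 without CON 18, and Cyba lies at -0.37 in numbers 1 to 8 and at 0.26 in numbers 10 to 19 without CON 18.

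The subunits differ in GC content. The longest coding transcript has 42.4% GC for Cybb, 59.3% for Cyba, 53.4% for Ncf1 and 55.7% for Ncf4. In RSD 8, Cybb deviated from its median over the 13 libraries by 0.58 (log2), where genes of like GC had a median of 0.44. The deviation was -0.51 for Cyba, -0.065 for Ncf1 and -0.52 for Ncf4, where genes of like GC had medians of -0.66, -0.30 and -0.49. Within numbers 1 to 8 the correlation of a library's deviations with GC was -0.566, -0.054 and -0.728 in RSD 2, 7 and 8, against 0.189, 0.408 and 0.232 in CON 1, 4 and 5. With the trend removed, log2 Cybb was 6.14, 6.30 and 6.08 in RSD 2, 7 and 8, against 5.80, 6.28 and 5.95 in CON 1, 4 and 5, and the groups overlapped. Ncf4 was then 9.22, 9.18 and 9.21 in those RSD libraries, against 9.28, 9.30 and 9.23 in the CON ones, still apart but closer. Cyba was then 8.91, 8.73 and 8.82 in RSD 2, 7 and 8, against 9.09, 8.78 and 8.60 in CON 1, 4 and 5. In numbers 10 to 19 it was 8.81, 8.84, 8.44 and 8.62 in RSD 10, 11, 12 and 13, against 8.48 and 8.49 in CON 17 and 19. The Cyba groups overlapped in both ranges, RSD 12 lying below CON 17 and CON 19. Over all 13 libraries the Cybb difference was -1.16 ± 1.06 with the trend removed, close to that without removal. Over the 12 libraries without CON 18 the difference with the trend removed was 0.018 ± 0.17 for Cybb, 0.054 ± 0.10 for Cyba and -0.020 ± 0.053 for Ncf4 (SE; limma adjusted p = 0.987, 0.936 and 0.956), where 0% of 12450 genes passed the adjusted threshold and 5.5% the unadjusted one.

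**Figure D5:**
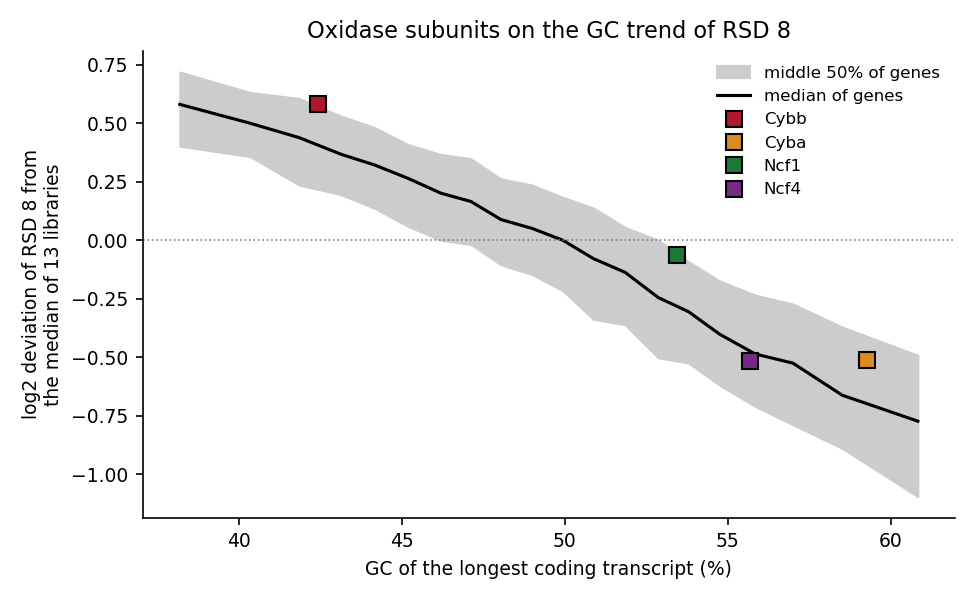
Log2 deviation of RSD 8 from the median of 13 libraries against transcript GC. The line is the median and the band the middle 50% of genes in 20 bins of GC. Cybb, at 42.4% GC, lies above 0, and Cyba, Ncf1 and Ncf4 lie below it.

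Spread between libraries differed from subunit to subunit. Over the 12 libraries without CON 18 the coefficient of variation was 24.1% for Cybb, against 13.1% from counting alone. It was 17.8% for Cyba, 11.1% for Ncf4 and 6.10% for Ncf1, where counting gives 4.95%, 4.15% and 1.51%. Of the 6 pairs of subunits, Cyba and Ncf4 moved together most closely over these 12 libraries (Pearson r = 0.784, permutation p = 0.00246, Benjamini-Hochberg adjusted p = 0.0148; Spearman rho = 0.713, permutation p = 0.0114, adjusted p = 0.0685). Without CON 1 and RSD 8, the libraries farthest from the median of Cyba, r was 0.556. It was 0.891 in numbers 1 to 8 (n = 6, exact permutation p = 0.0222, adjusted p = 0.127) and 0.638 in numbers 10 to 19 without CON 18 (n = 6, exact permutation p = 0.211, adjusted p = 0.883). With the GC trend removed r was 0.536 (permutation p = 0.0737, adjusted p = 0.442), and over all 13 libraries it was 0.561 (permutation p = 0.0473, adjusted p = 0.142). The relation was thus weaker without those libraries and with the GC trend removed. No pair with the catalytic subunit passed: over the 12 libraries its r was -0.202 with Cyba, -0.038 with Ncf1 and -0.514 with Ncf4 (permutation p = 0.531, 0.905 and 0.0807, adjusted p = 0.638, 0.905 and 0.242). The sign of each of these values turned positive with the GC trend removed and stayed negative in numbers 1 to 8. With the GC trend removed they were 0.407, 0.340 and 0.126 (permutation p = 0.188, 0.276 and 0.692, adjusted p = 0.552, 0.552 and 0.840). In numbers 1 to 8 they were -0.779, -0.416 and -0.758 (n = 6, exact permutation p = 0.0569, 0.399 and 0.0847, adjusted p = 0.127, 0.478 and 0.127). In numbers 10 to 19 without CON 18 they were 0.333, -0.098 and -0.048 (n = 6, exact permutation p = 0.467, 0.861 and 0.917, adjusted p = 0.917 for each). Over the 12 libraries the pairs with Ncf1 gave r = 0.205 with Cyba and 0.463 with Ncf4 (permutation p = 0.522 and 0.129, adjusted p = 0.638 and 0.257).

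Genes whose pattern was most like that of each subunit over the 12 libraries were picked by Spearman's rho among 8858 genes of at least 100 normalized reads on average. These rho values are descriptions, and the libraries share depth scaling and the GC trend. For Cybb they were Fbxl17 (rho = 0.937), Arhgap15 and Slc35a5 (both 0.923), Slc18a2 (0.916) and 1300002E11Rik (0.895). Arhgap15, a Rac GTPase-activating protein, kept its likeness with CON 18 added (0.940), and Slc35a5 did not (0.511). For Cyba the closest were the apoptosis effector Bak1 (0.916) and Zfyve27 (0.909), with Glt25d1, Fam83h and Hist2h2ab at 0.895 to 0.902. For Ncf1 they were Aes and Rfc2 (both 0.930), Asap3 (0.923), Chst12 (0.909) and Cryba4 (0.902). For Ncf4 they were Lrwd1 (0.965), Lemd2, Taz and Zc3h7b (each 0.937) and Brat1 (0.930).

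The other components of the oxidase did not pass the test either. Of 16 listed genes 9 were tested, with 3 at positive and 6 at negative differences, 0 past the adjusted threshold, and a median log2 difference of -0.057, where the median of all genes was 0.0057. Without CON 18, 10 were tested, 2 positive and 8 negative, with a median of -0.10, where that of all genes was 0.00082. Rac1, the GTPase of macrophage oxidase, averaged 3839 ± 281 normalized reads in RSD (SD, n = 7) and 3790.0 ± 464 in CON (SD, n = 6). Its blood-cell relative Rac2 averaged 631 ± 117 in RSD and 680.2 ± 107 in CON. Without CON 18 the CON means were 3956 ± 248 for Rac1 and 711 ± 85.6 for Rac2 (SD, n = 5). The proton channel Hvcn1, which carries off the charge the enzyme moves, averaged 935 ± 131 in RSD and 965 ± 65.5 in CON. Prdx6 and Noxo1 had the smallest p of the list, with log2 differences of -0.19 ± 0.13 and -0.16 ± 0.12 (limma adjusted p = 0.821 for each).

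Kinases and exchange factors that act on the oxidase were balanced. Of 16 tested, 8 were positive and 8 negative, 0 passed, and the median was 0.013 (-0.014 without CON 18). Dock2, a Rac exchange factor of leukocytes, averaged 7747 ± 369 normalized reads in RSD (SD, n = 7) and 7348 ± 466 in CON (SD, n = 6), and the lipid kinase Pik3cg 7009 ± 366 in RSD and 7181 ± 396 in CON. The kinases Btk and Pak1, of smallest p, had log2 differences of 0.099 ± 0.063 and 0.12 ± 0.083 (limma adjusted p = 0.821 for each). Of 14 tested receptors that trigger the oxidase, 4 were positive and 10 negative, 0 passed, and the median was -0.063. Without CON 18 the counts were 8 and 6 and the median 0.011. Fcer1g, the signalling chain of Fc receptors, averaged 2683 ± 220 in RSD and 3175 ± 297 in CON, a difference of -0.24 ± 0.078 (limma unadjusted p = 0.00658, adjusted p = 0.821). The UDP receptor P2ry6 averaged 1636 ± 272 in RSD and 1990.3 ± 215 in CON, a difference of -0.30 ± 0.11 (limma unadjusted p = 0.0188, adjusted p = 0.821). These were the 2 of the 14 at an unadjusted p under 0.05, as were 4% of all genes. Without CON 18 their limma unadjusted p was 0.0126 and 0.0407 (limma adjusted p = 0.745 for each), where 4.92% of all genes were under 0.05. Itgam, a chain of complement receptor 3, differed by 0.092 ± 0.11 and the Fc receptor Fcgr3 by 0.11 ± 0.097. Without CON 18 these differences were -0.033 ± 0.047 and 0.012 ± 0.064.

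Transcription factors of myeloid oxidase genes gave 5 positive and 6 negative differences of 11 tested, 0 past the threshold, and a median of -0.0030 (0.015 without CON 18). Spi1 averaged 1336 ± 192 normalized reads in RSD (SD, n = 7) and 1374 ± 106 in CON (SD, n = 6), and Irf8, its partner at composite elements, averaged 3543 ± 409 in RSD and 3877 ± 237 in CON (log2 difference -0.14 ± 0.084). Runx1 differed by 0.11 ± 0.061 (limma adjusted p = 0.821). Without CON 18 the Runx1 difference was 0.13 ± 0.059 (limma unadjusted p = 0.044, adjusted p = 0.745). It was then the 1 of the 11 at an unadjusted p under 0.05, as were 4.92% of all genes. Of 16 tested genes for the removal of superoxide and peroxide, 7 were positive and 9 negative, 0 passed, and the median was -0.025 (-0.033 without CON 18). Gpx1, which reduces hydrogen peroxide, averaged 775 ± 116 in RSD and 908 ± 94.2 in CON, a difference of -0.24 ± 0.10 (limma unadjusted p = 0.0365, adjusted p = 0.821). Gsr, which regenerates glutathione, averaged 182 ± 15.05 in RSD and 147 ± 37.4 in CON, a difference of 0.35 ± 0.16 (limma unadjusted p = 0.0481, adjusted p = 0.821) that was 0.17 ± 0.094 without CON 18, where Gsr had 75.5. Gpx1 and Gsr were the 2 of the 16 at an unadjusted p under 0.05, as were 4% of all genes. Without CON 18 the Gpx1 difference was -0.19 ± 0.10 (limma unadjusted p = 0.0767), and 0 of the 16 were under it. Gclc, of the glutathione pathway, differed by 0.14 ± 0.097, and by 0.033 ± 0.057 without CON 18. Of 10 tested genes that supply NADPH, 3 were positive and 7 negative, 0 passed, and the median was -0.069 (-0.084 without CON 18). Pgd and Tkt, of the pentose phosphate pathway, averaged 862 ± 83.6 and 852 ± 117 in RSD, against 903 ± 79.8 and 903 ± 65.1 in CON. Pgls, of the same pathway, differed by -0.33 ± 0.17 and the NAD kinase Nadk2 by 0.19 ± 0.11 (limma adjusted p = 0.821 for each).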

How the data were processed

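The authors deposited 1 table for the series, a signal per gene and library that is a read count divided by the library's size factor. The submitters' processing notes name STAR, DESeq2 and the build mm10. Their versions, the read counter, the annotation and any strand setting were not given in the sources used here. Libraries were made with Ovation SoLo and AnyDeplete removal of ribosomal RNA, per the labels' protocols. The signal was read back into whole reads: 100% of values were whole within 0.01 reads, a tolerance that was widened in proportion to the count for large counts. The 4 genes, the lists and the rules were chosen with earlier results of these data known.

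The reported test was limma 3.58.1 (trend, robust) in R 4.3.3 on log2(value + 1), all 13 libraries, two-sided, with Benjamini-Hochberg adjustment over 12496 genes kept by filterByExpr (minimum count 10, minimum total 15). Differences on this scale are understated for low genes. As alternatives on the recovered reads, edgeR 4.0.16 (TMM) called 0 genes and DESeq2 1.42.0 called 2. Other alternatives changed the pseudocount, filter, scaling or libraries; removal of a GC trend, length by coding transcript and the fits that join another choice to leaving out CON 18 (other than leaving out RSD 8) were chosen after seeing the data. GC trend removal subtracted in each library the median deviation of genes in the same of 20 bins of GC. Single genes were compared by exact permutation over libraries and pairs of genes with 100000 permutations. The steps were tested on simulated data. No molecular identifiers were used here, so counting errors cover reads only. Depth was 9.76 to 12.3 M reads.

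Gene positions and lengths are from GENCODE M21 (GRCm38), start regions from RefSeq GRCm38.p6. Named beside the 4 genes were, in each of 6 lists, the 2 of highest level and the 2 of smallest p; for each subunit the 5 genes of highest rho; Rac1, Rac2, Hvcn1, Spi1 and Irf8 in any case; and genes on which a value turned. Some genes that this rule picks are not reported here, while counts and medians of the lists include them.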

Additional observations from a re-analysis of the deposited data

Results flagged for a closer look

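For the 4 subunits and the always named regulators and components, 10 genes in all, the highest and lowest library of each group were compared with their neighbours, over 30 sets of values. Chance picks about 1 in 20, and 3 were picked.

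Cybb in CON: CON 18, at 7834.2 normalized reads, lay apart from the other 5 libraries by 0.997 of the group's whole range. Rac1 in RSD: RSD 8 was the highest of 7 libraries at 4453, with a gap of 0.737 of the range. Irf8 in RSD: RSD 8 was the lowest of 7 libraries at 2688, with a gap of 0.59 of the range. RSD 8 is the library of the strongest GC trend, whose part in these values was not tested.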

How the results depend on the processing

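Of 32 alternatives, none brought a subunit past the adjusted threshold, and each value named here is a log2 difference, RSD minus CON, unless said otherwise. Cybb turned positive without CON 18 (0.12, exact test included), without CON 18 and RSD 8 (0.032), in numbers 1 to 8 (0.44), and without CON 18 together with GC removal (0.018), number range as a covariate (0.20), edgeR (0.14) or DESeq2 (0.14). Cyba turned positive in numbers 10 to 19 (0.25, or 0.26 without CON 18), with GC removal (0.076, or 0.054 without CON 18), and without CON 1 (0.042) or RSD 8 (0.035). Ncf1 was 0.0045 in numbers 10 to 19 and 0.0054 with GC removal, and Ncf4 was 0.078 in numbers 10 to 19 without CON 18. Leaving out each library in turn gave -1.37 to 0.12 for Cybb, -0.095 to 0.042 for Cyba, -0.11 to -0.033 for Ncf1 and -0.21 to -0.11 for Ncf4, with 0 genes called each time. Without CON 18 the exact test of Ncf1 (-0.11) gave an unadjusted single-gene p of 0.0215, the correlation of Cyba with Ncf4 (r = 0.784) had a permutation p adjusted over the 6 pairs of 0.0148 by Pearson and 0.0685 by Spearman, and r of Cybb with Ncf4 was -0.514, against 0.432 over 13 libraries. Genes called were 0 with limma and edgeR (500 and 632 at an unadjusted p under 0.05), 2 with DESeq2 (577), 3 with DESeq2 without CON 18 (708) and 11 with limma in numbers 10 to 19 without CON 18 (1214). Per kilobase of coding transcript the levels were 51.2 for Cyba, 139 for Ncf1 and 36.4 for Ncf4. In numbers 10 to 19 the median of the kinase list was 0.097 and that of the transcription factor list 0.090. The cause of these shifts was not tested. DESeq2 gave no p for Cybb with CON 18 (difference -4.41). No paired analysis was made because the labels give no pairing of RSD and CON libraries. At 45 to 85 reads outside CON 18, the counting error of Cybb was 10.8% to 14.9% per library. The coefficient of variation over those 12 libraries was larger, at 24.1%.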

Other observations

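Next to Cybb in the ratio of CON 18 to the median of the other 12 libraries were Mndal (107-fold, 2617 normalized reads), an interferon-inducible nuclear protein, and Cd93 (104-fold, 1554 normalized reads), a surface receptor of myeloid and endothelial cells. The receptor kinase Axl was 46.5-fold higher in CON 18 at 6716 normalized reads, and the Fc receptor Fcgr4 2.55-fold higher at 170.2. The endothelial marker list summed to 221 in CON 18, against 464 to 599 in RSD and 539 to 599 in the other CON libraries, and the astrocyte list to 518, against 1306 to 1669 in RSD and 1297 to 1652 in the other CON libraries. The number of genes at 2-fold or more of the median was 777, and 844 were at 50% or less of it.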
